A study of Homo sapiens with 21 samples.

Results

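The genes described here are 8 immediate early genes, EGR1, EGR2, EGR3, FOS, FOSB, JUN, JUNB and IER2, which were picked by symbol and make up 8 of the 37355 genes in the deposited count table. Each symbol matched 1 gene. RNA was sequenced from BT474, an established human breast cancer cell line with high HER2 (ERBB2), in 21 libraries that form 7 groups of 3. Untreated BT474 cells were set beside BT474 cells given trastuzumab, an antibody to HER2, at 10 µg/mL for 3 days. A further group received trastuzumab and pertuzumab, a HER2 antibody that blocks pairing of the receptor, at 10 µg/mL each for 3 days. The other groups are cell pools with a BT474 background. BT-TR1 and BT-TR2 are labelled resistant to trastuzumab. BT-TPR1 carries the label of resistance to both antibodies, as does BT-TPR2, and all 4 pools had been off treatment for 7 days when harvested. All groups grew in RPMI-1640 with 10% FBS to 80% confluence, and a timed serum or ligand pulse was not among the labelled treatments. The time since the last change of medium was not examined. Growth rates were not examined here, and a difference in growth between groups cannot be told apart from treatment or pool. The sources used here do not say how the pools were selected, whether untreated cells had a passage-matched control for them, or whether replicates came from separate cultures, and p-values then measure only the spread between these libraries.

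Immediate early genes are transcribed within minutes of a growth signal, without new protein synthesis, and are then quickly shut off. In cells driven by HER2, receptor signalling runs through RAS, RAF, MEK and ERK to ternary complex factors such as ELK1, which sit with serum response factor (SRF) on CArG boxes in the promoters of EGR and FOS genes. FOS and JUN proteins pair to form the AP-1 transcription factor, while EGR proteins are zinc finger factors held in check by the corepressors NAB1 and NAB2. JUN is also driven by JUN N-terminal kinase and by its own product through sites that resemble cyclic AMP response elements.

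Stretches of 3 promoters are shown because EGR1, FOS and JUN took different courses over the groups described further on, and each stretch holds a match to a sequence element searched for. They come from RefSeq on GRCh38.p14 and run 5′ to 3′ on the strand of the gene, with the matched bases in capitals. EGR1 is given as the 250 bases before its RefSeq start, chr5:138465229-138465478 on the plus strand, with an EGR site followed by 2 CArG boxes. FOS is given as the 30 bases around its TATA box, chr14:75278783-75278812 on the plus strand, and JUN as the 30 bases around a site like a cyclic AMP response element, chr1:58784096-58784125 on the minus strand.
EGR1: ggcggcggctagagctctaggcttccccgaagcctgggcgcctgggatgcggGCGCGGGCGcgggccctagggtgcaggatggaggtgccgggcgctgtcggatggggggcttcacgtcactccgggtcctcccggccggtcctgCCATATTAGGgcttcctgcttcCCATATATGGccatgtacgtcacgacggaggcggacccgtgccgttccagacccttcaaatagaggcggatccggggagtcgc
FOS: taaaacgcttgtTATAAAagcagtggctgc
JUN: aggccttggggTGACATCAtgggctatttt
The EGR1 boxes lay 105 to 96 and 83 to 74 bases before the start. The JUN site lay 67 to 60 bases before it, and the FOS TATA box 33 to 28. Of 8 genes, 7 were searched for 5 elements on both strands of the 250 bases before each start. EGR3 was left out of the search, so nothing is said here of its promoter. The CArG box matched in EGR1 and at 1 start of EGR2 (71 to 62 bases before it), against 1.16% of 35116 RefSeq promoters of that length. TATAAA matched in FOS, JUNB and FOSB, against 10.7% of promoters. TGACNTCA matched in JUN, against 6.87%, and GCGNGGGCG in EGR1, against 8.41%. TGANTCA, the AP-1 site, matched in none of the 7 and in 6.57% of all promoters, and some matches to TGACNTCA and TGANTCA may overlap in other genes. A missing match says only that these letters are not in the window. The FOS and JUN stretches lie within the gene spans that GENCODE 29 draws, whose starts differ from RefSeq's.

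Library totals ran from 7939270 counts in BT-TR1 replicate 3 to 21746391 in untreated replicate 3. Mitochondrially encoded transcripts took 13.7% to 33.3% of counts. In every group the replicate 1 library leaned most toward genes rich in GC. Across genes, its deviation from the group mean correlated with GC content at r from 0.313 to 0.627. The other libraries lay at -0.537 to 0.0828. All 10 breast epithelial markers were present, from ESR1 at 38.3 to 88.1 CPM (read counts relative to the normalized library size) to ERBB2 at 4170 to 10300 CPM. Of the 10, 3 were lower with both antibodies and 3 or 4 in each pool, GATA3 in all 4 pools (-1.59, -0.91, -1.14 and -0.91 in the order BT-TR1, BT-TR2, BT-TPR1, BT-TPR2). KRT18 was higher in BT-TPR2 (0.38 ± 0.13). Over all tested genes 6.02% were lower with both antibodies, and 22.3%, 12.1%, 14.4% and 16% in the pools in that order. Of 14 markers of blood, endothelial and stromal cells 12 were in the table used, and PTPRC, DCN and COL1A2 had 1, 1 and 3 counts over all libraries. Of the 4 tested, the endothelial gene CDH5 (0.0517 to 3.41 CPM) was higher with both antibodies (2.38 ± 0.45, edgeR adjusted p = 0.00162) and in every pool (1.80 to 4.41), as FOS fell in them, and VWF was lower in BT-TR1, BT-TPR1 and BT-TPR2 (-1.70, -0.90 and -1.21). The list's summed level was 22.8 to 65.0 CPM, mostly COL1A1 and VWF, and its untreated range (35.6 to 65.0) overlapped those of BT-TR2 (37.2 to 57.3), BT-TPR1 (26.0 to 44.0) and BT-TPR2 (23.1 to 42.6) and lay above those of BT-TR1 (23.0 to 34.8), trastuzumab (29.4 to 32.9) and both antibodies (22.8 to 34.0). The part of these markers in the results below was not tested.

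Per kilobase of exon, untreated cells held most of JUNB (15.6 ± 2.44 CPM per kilobase, SD, n = 3), IER2 (12.4 ± 1.92), JUN (10.5 ± 1.02) and EGR1 (9.69 ± 1.88). FOS stood at 2.61 ± 0.296, EGR3 at 0.501 ± 0.111, FOSB at 0.0955 ± 0.0372 and EGR2 at 0.0708 ± 0.0362 CPM per kilobase. Among the 4 FOS and JUN genes described, JUN and JUNB were thus the most abundant and FOSB the least. The 16 other AP-1 subunit genes listed summed to 530 to 603 CPM in untreated cells. EGR2 had 0 to 8 counts in a library and did not pass the filter on low counts, which left 7 members among 17650 tested genes. FOSB, at 1 to 25 counts, reached the filter's level (0.559 CPM on raw library totals) in 9 libraries, 3 of them from BT-TPR2, the only group with all its libraries there. Differences below are log2 fold changes ± standard error from edgeR's quasi-likelihood test, with Benjamini-Hochberg adjustment over all 17650 genes and a call at an adjusted p under 0.05. RNA of bulk cells cannot separate fewer expressing cells from less RNA per cell.

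**Figure D1:**
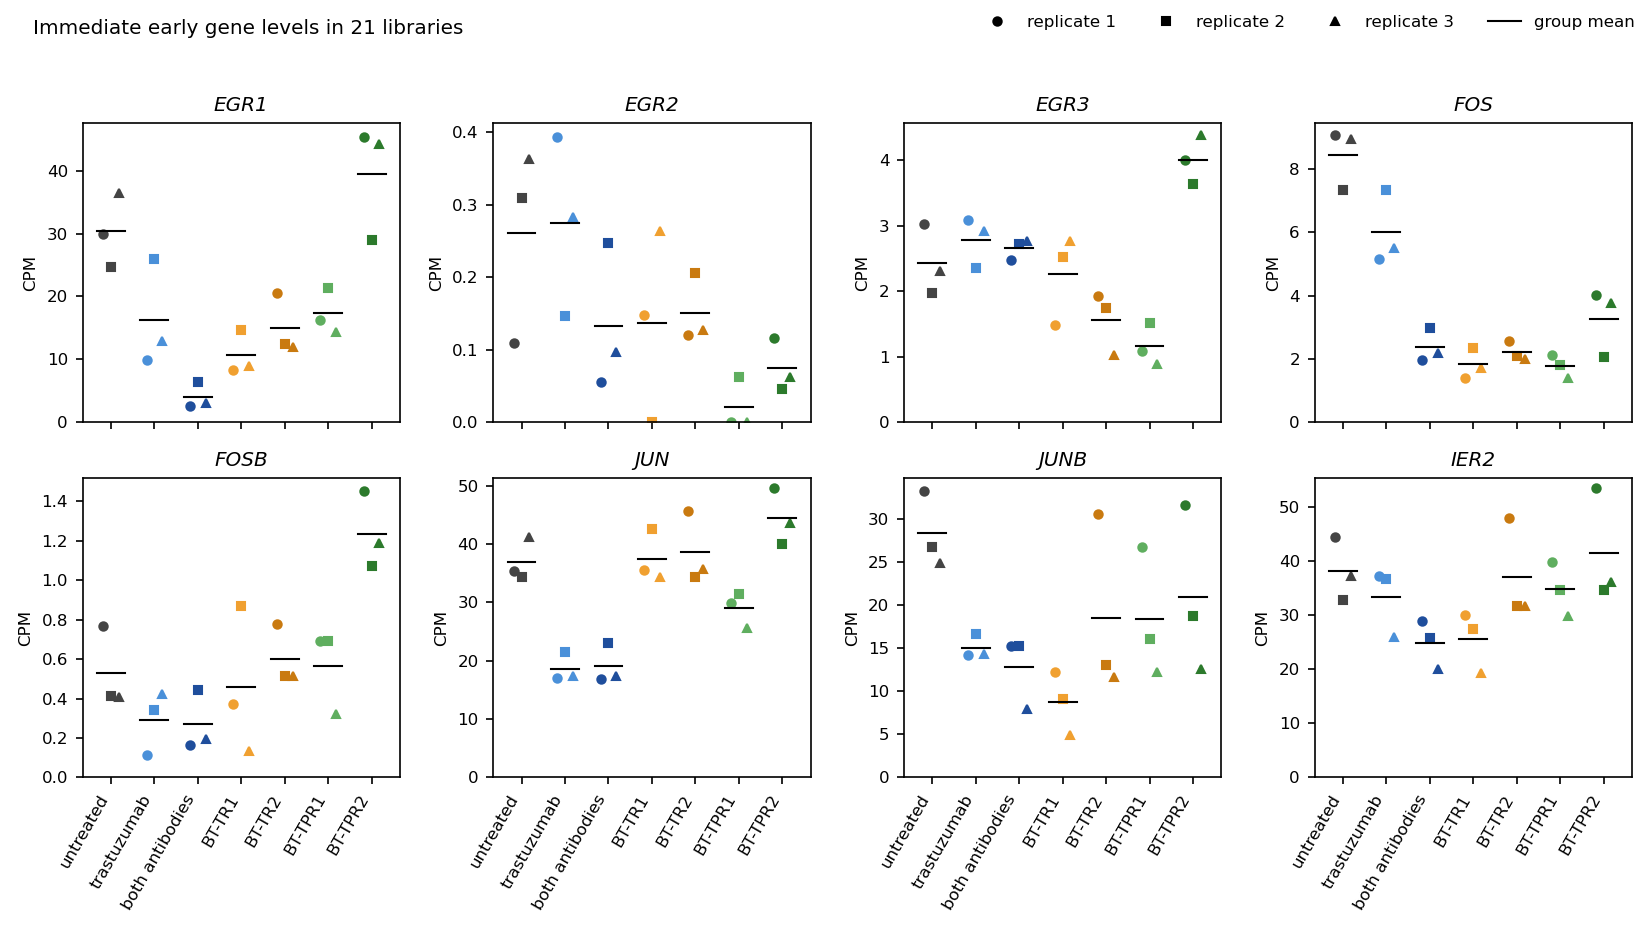
Level of each of the 8 genes (CPM, linear axes from 0) in the 21 libraries, by group, with replicates 1, 2 and 3 as circles, squares and triangles and the group mean as a bar. FOS is highest in untreated cells and trastuzumab and at 4.01 CPM or less elsewhere, JUN is lowest with either antibody treatment, and EGR1 is lowest with both antibodies.

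With trastuzumab alone JUN fell, and it was the single member of 7 that passed the test, against 7.48% of all tested genes (3.71% higher, 3.78% lower). JUN, the main partner of FOS proteins, stood at 35.4, 34.4 and 41.1 CPM in untreated replicates 1, 2 and 3 and at 17.0, 21.4 and 17.4 CPM with trastuzumab. No treated library reached an untreated one. The change was -0.99 ± 0.15 (edgeR adjusted p = 0.000413), a level 0.503 times that of untreated cells, and it kept its call under all 32 alternatives tried. The median change of the 7 members was -0.79, beside -0.02 over all tested genes.

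EGR1, a zinc finger factor induced through ERK, stood at 30, 24.7 and 36.5 CPM untreated and 9.93, 25.9 and 12.9 CPM with trastuzumab. Replicate 2 of the treated cells lay inside the untreated range and the other 2 far below it. The EGR1 difference of -0.90 ± 0.34 did not pass in edgeR (adjusted p = 0.12). It was -1.40 without trastuzumab replicate 2 (adjusted p = 0.0265) and -0.95 with replicate number as a block (adjusted p = 0.0132, range over alternatives 4.17e-05 to 0.34). FOS stood at 9.07, 7.34 and 8.94 CPM untreated and at 5.16, 7.33 and 5.51 CPM with trastuzumab. The groups did not overlap, though replicate 2 of each nearly met, and the difference of -0.49 ± 0.22 did not pass (edgeR adjusted p = 0.199).

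JUNB, a JUN relative that often restrains JUN, stood at 33.3, 26.8 and 24.9 CPM untreated, 14.2, 16.7 and 14.3 CPM with trastuzumab, and 15.2, 15.2 and 7.93 CPM with both antibodies. All 6 treated libraries lay below all 3 untreated ones. The JUNB differences were -0.91 ± 0.39 (edgeR adjusted p = 0.165) and -1.15 ± 0.39 (adjusted p = 0.0603), neither of which passed. With trastuzumab JUNB passed with the replicate block (-0.88, adjusted p = 0.00177, range over alternatives 4.57e-05 to 0.342). With both antibodies JUNB passed without BT-TR2, BT-TPR1 or BT-TPR2 replicate 1 (edgeR adjusted p = 0.0293, 0.049 and 0.0403). These libraries lie outside the comparison and enter through the shared filter, scaling, estimate of spread and p-value adjustment. IER2, a nuclear regulator induced early by growth factors, stood at 44.4, 32.8 and 37.2 CPM untreated, 37.2, 36.7 and 26.0 CPM with trastuzumab and 28.9, 25.7 and 20.1 CPM with both antibodies. The last group lay below untreated cells in all libraries, while the trastuzumab group overlapped them. IER2 differed by -0.20 ± 0.22 with trastuzumab and -0.62 ± 0.22 with both antibodies (edgeR adjusted p = 0.641 and 0.0707), and the latter passed without BT-TR2 or BT-TPR2 replicate 1 (adjusted p = 0.0495 and 0.0475).

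With both antibodies EGR1, FOS and JUN fell, 3 of the 7 tested members against 12.4% of all tested genes (6.39% higher, 6.02% lower). EGR1 stood at 2.58, 6.48 and 3.07 CPM and FOS at 1.98, 2.97 and 2.19 CPM with both antibodies. Every one of these values was below the lowest untreated and the lowest trastuzumab value of its gene. EGR1 changed by -2.90 ± 0.38 against untreated cells (edgeR adjusted p = 4.48e-05), to 0.134 times the untreated level, and ranked 14 among the 17650 tested genes by size of fall. FOS changed by -1.82 ± 0.24 (adjusted p = 4.83e-05). JUN stood at 16.8, 23.0 and 17.4 CPM, below all untreated libraries and at the level seen with trastuzumab alone, a change of -0.96 ± 0.15 (adjusted p = 0.000321). All 3 calls held under all 32 alternatives. The members' median was -0.96, beside -0.01 over all genes.

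Adding pertuzumab to trastuzumab lowered EGR1 and FOS further, 2 of 7 members against 0.867% of all tested genes (0.487% higher, 0.380% lower). EGR1 was lower by -2.0 ± 0.37 (edgeR adjusted p = 0.00872), which ranked 7 among all falls, and FOS by -1.33 ± 0.24 (adjusted p = 0.00644). The EGR1 call ended without trastuzumab replicate 2 (-1.49, adjusted p = 0.0773), without replicate 1 or 3 of the cells given both antibodies (-1.76 and -1.83, adjusted p = 0.0703 and 0.0681), or with only the 2 groups compared in the fit (adjusted p = 0.124, range over alternatives 8.18e-21 to 0.124). The FOS call ended without trastuzumab replicate 2 (-1.16, adjusted p = 0.0534), without replicate 1 of the cells given both antibodies (-1.21, adjusted p = 0.0563), or with only the 2 groups (0.0513, range 3.21e-05 to 0.0563). JUN differed by 0.03 ± 0.15 between the treatments (adjusted p = 1), a standard error that leaves room for a small change in either direction. These comparisons share libraries: the trastuzumab group enters the second with the opposite sign.

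EGR3, FOSB and EGR2 passed no test with either treatment. EGR3, which is induced after EGR1 in many cells, stood at 3.02, 1.97 and 2.31 CPM untreated, 3.08, 2.35 and 2.92 CPM with trastuzumab and 2.47, 2.72 and 2.77 CPM with both antibodies. The 3 groups overlapped, and the EGR3 differences were 0.19 ± 0.24 and 0.13 ± 0.24. Within libraries EGR1 counts per 100 EGR3 counts went from 993, 1260 and 1580 in untreated cells to 104 and 238 in replicates 1 and 2 given both antibodies. FOSB stood at 0.769, 0.414 and 0.408 CPM untreated, at 0.112, 0.342 and 0.424 CPM with trastuzumab and at 0.165, 0.445 and 0.195 CPM with both antibodies, at 2 to 14 counts a library. EGR2 had 2, 6 and 8 counts untreated, 7, 3 and 6 counts with trastuzumab and 1, 5 and 2 counts under both antibodies, too few for a difference to be detectable.

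**Figure D2:**
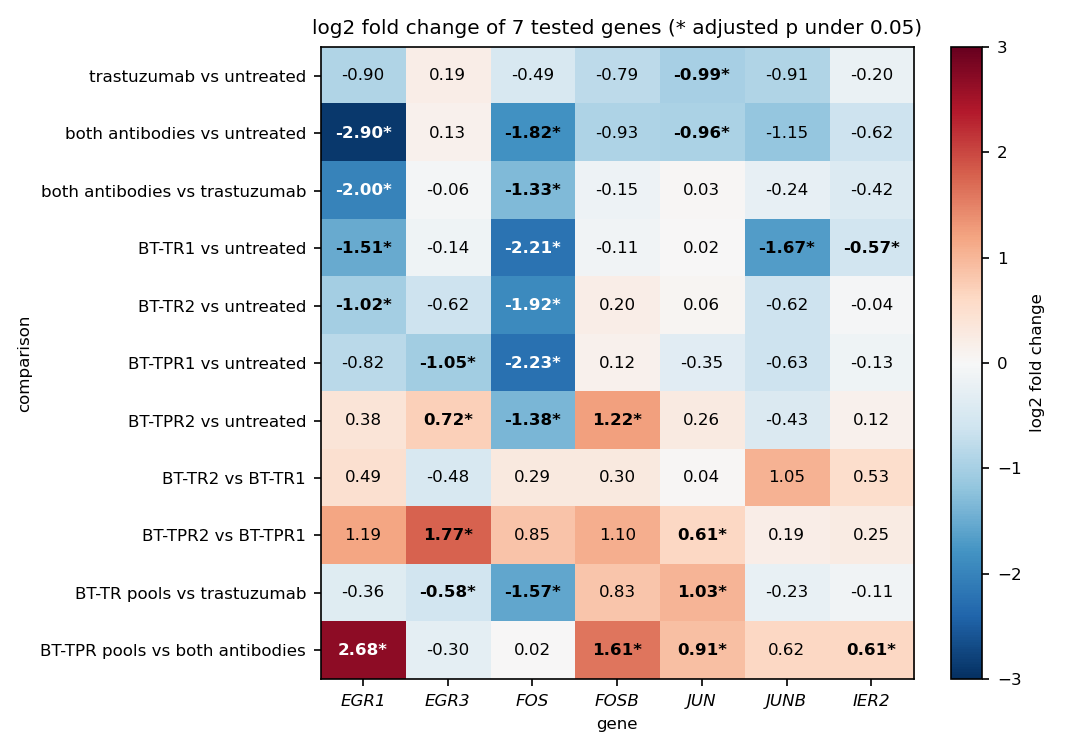
log2 fold change of the 7 tested genes in 11 comparisons (red higher, blue lower in the first-named group; an asterisk marks an edgeR adjusted p under 0.05). FOS is lower in all 4 pools and with both antibodies, from -1.38 to -2.23, while JUN passes with the antibodies and in no pool against untreated cells.

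FOS was the member that fell in all 4 pools, 7 days after the antibodies had been withdrawn. FOS stood at 1.41, 2.35 and 1.72 CPM in BT-TR1, 2.58, 2.11 and 1.99 CPM in BT-TR2, 2.13, 1.82 and 1.41 CPM in BT-TPR1 and 4.01, 2.05 and 3.76 CPM in BT-TPR2. Each of the 12 values lay below the lowest untreated library (7.34 CPM) and below the lowest trastuzumab library (5.16 CPM). The changes against untreated cells were -2.21 ± 0.27, -1.92 ± 0.24, -2.23 ± 0.25 and -1.38 ± 0.23 in the order BT-TR1, BT-TR2, BT-TPR1, BT-TPR2 (edgeR adjusted p = 5.28e-06, 1.3e-05, 3e-06 and 0.000213). All 4 calls held under all 32 alternatives. The 4 comparisons share the 3 untreated libraries and are not independent of one another.

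In BT-TR1, 4 of 7 members fell (EGR1, FOS, JUNB and IER2), in a comparison where 43.6% of all tested genes were called, 21.3% as higher and 22.3% as lower. EGR1 stood at 8.38, 14.6 and 8.97 CPM, below every untreated library, and changed by -1.51 ± 0.36 (edgeR adjusted p = 0.00289). JUNB stood at 12.2, 9.14 and 4.88 CPM, below every untreated library and with the lowest group mean of the 7 groups, and changed by -1.67 ± 0.41 (adjusted p = 0.00344). IER2 stood at 30, 27.4 and 19.3 CPM, all below untreated cells, and changed by -0.57 ± 0.22 (adjusted p = 0.0436). JUNB and IER2 are the members richest in GC (64.9% and 61.7%, against a median of 47.6% over tested genes), and correcting libraries for the GC content of genes shrank the JUNB change to -0.52 (adjusted p = 0.0328, range over alternatives 3.89e-17 to 0.0328) and turned the IER2 change to 0.28 (adjusted p = 0.0462, range 0.000203 to 0.21). The IER2 call was lost on removing untreated replicate 1 or 3 (-0.42 and -0.59, adjusted p = 0.18 and 0.0672), without BT-TR1 replicate 2 or 3 (-0.60 and -0.39, adjusted p = 0.073 and 0.21), and without trastuzumab replicate 1 or 2, replicate 2 of both antibodies or BT-TPR1 replicate 2 (adjusted p = 0.0509, 0.0542, 0.0513 and 0.0532). JUN stood at 35.6, 42.5 and 34.3 CPM, overlapping untreated cells (0.02 ± 0.15), and reached 0.42 with the GC correction (adjusted p = 0.0407, range 0.00209 to 1).

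In BT-TR2, EGR1 and FOS fell, 2 of 7 members against 24.9% of tested genes (12.7% higher, 12.1% lower), a count near the share called. EGR1 stood at 20.6, 12.4 and 12.0 CPM, with replicate 1 nearest to the untreated range but still below it, and changed by -1.02 ± 0.35 (edgeR adjusted p = 0.0371). That call was lost on removing untreated replicate 1 or 3 (-1.02 and -0.87, adjusted p = 0.0635 and 0.112), without BT-TR2 replicate 2 or 3 (-0.90 and -0.88, adjusted p = 0.131 and 0.13), and with libraries scaled by size alone (adjusted p = 0.0601, range over alternatives 4.39e-07 to 0.131). JUNB stood at 30.6, 13.1 and 11.7 CPM, with replicate 1 within the untreated range and the other 2 below it. Its difference of -0.62 ± 0.38 (adjusted p = 0.254) became -1.19 without that library (adjusted p = 0.0344) and passed with the replicate block (-0.71, adjusted p = 0.00466, range 0.00385 to 0.574). EGR3 stood at 1.92, 1.75 and 1.03 CPM, just below the untreated libraries, at -0.62 ± 0.25 (adjusted p = 0.0784, and 0.0448 with the replicate block, range 0.0277 to 0.304). JUN, at 45.7, 34.4 and 35.7 CPM, and IER2, at 48.0, 31.7 and 31.7 CPM, overlapped untreated cells.

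In BT-TPR1, EGR3 and FOS fell, 2 of 7 members against 27.3% of tested genes (12.9% higher, 14.4% lower), a count near the share called. EGR3 stood at 1.09, 1.51 and 0.897 CPM, below every library of the untreated and antibody-treated groups, and changed by -1.05 ± 0.26 (edgeR adjusted p = 0.00625), a call held under all 32 alternatives. EGR1 stood at 16.3, 21.3 and 14.3 CPM and JUN at 29.8, 31.5 and 25.6 CPM. Both genes lay below untreated cells in all 3 libraries without passing the test (-0.82 ± 0.34 and -0.35 ± 0.15, adjusted p = 0.0857 and 0.087). They passed with the replicate block, EGR1 at -0.84 (adjusted p = 0.0148, range over alternatives 8.96e-05 to 0.224) and JUN at -0.36 (adjusted p = 0.0244, range 0.0244 to 0.391). JUNB, at 26.7, 16.1 and 12.2 CPM, overlapped untreated cells through replicate 1 (-0.63 ± 0.38, adjusted p = 0.238) and passed with the block (-0.69, adjusted p = 0.00553, range 0.00501 to 0.533). EGR2 had 0, 1 and 0 counts here against 2, 6 and 8 untreated. It was below the filter on low counts. With no filter edgeR called it lower (adjusted p = 0.0165), the single EGR2 call in the 11 comparisons fitted that way (range over them 0.0165 to 1). Without the filter EGR1 in this pool also went from an edgeR adjusted p of 0.0857 to 8.96e-05, at the same change of -0.82. Resting on so few counts and on that fit alone, the EGR2 call does not establish a loss in this pool.

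BT-TPR2 was the only pool with members called higher against untreated cells: EGR3 and FOSB were higher and FOS lower, 3 of 7 members against 31.6% of tested genes (15.6% higher, 16.0% lower). With only 7 members, this count is not far from the share called. EGR3 stood at 4.01, 3.63 and 4.39 CPM, above all 18 other libraries, a change of 0.72 ± 0.23 (edgeR adjusted p = 0.024). FOSB, which encodes a FOS relative, stood at 1.45, 1.07 and 1.19 CPM on 25, 23 and 19 counts, also above all 18 other libraries, a change of 1.22 ± 0.41 (adjusted p = 0.0291). The EGR3 call was lost on removing untreated replicate 2 or 3 (adjusted p = 0.0849 and 0.0663), without BT-TPR2 replicate 3 (0.0818) or with only the groups compared (0.0525, range over alternatives 0.00408 to 0.0849). The FOSB call was lost on removing untreated replicate 2 or 3 (adjusted p = 0.088 and 0.0996) or any 1 of the 3 BT-TPR2 libraries (0.0704, 0.0523 and 0.0604). BT-TPR2 gave 3 of the 9 libraries in which FOSB reached the level of the low-count filter, and on the deposited transformed values its change was 0.70. FOSB overlaps ERCC1 on the opposite strand, and since strandedness was not stated their reads cannot be told apart.

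EGR1 in BT-TPR2 stood at 45.4, 29 and 44.2 CPM and JUN at 49.6, 40 and 43.5 CPM, with 2 of 3 libraries above the untreated range in each gene. Their changes of 0.38 ± 0.34 and 0.26 ± 0.15 did not pass (edgeR adjusted p = 0.415 and 0.19). JUNB stood at 31.6, 18.7 and 12.6 CPM and IER2 at 53.6, 34.7 and 36.2 CPM, again with replicate 1 highest. IER2 differed by 0.12 ± 0.22 (adjusted p = 0.702), and by 0.39 with the GC correction (adjusted p = 0.00489, range over alternatives 0.000895 to 0.916). JUNB differed by -0.43 ± 0.38 (adjusted p = 0.408), and passed with the replicate block (-0.51, adjusted p = 0.0294, range 0.0252 to 0.833).

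The pools resistant to both antibodies differed from each other in EGR3 and JUN, 2 of 7 members against 3.45% of tested genes (1.64% higher, 1.81% lower), both higher in BT-TPR2. EGR3 differed by 1.77 ± 0.26 (edgeR adjusted p = 0.000321), 3.42 times the BT-TPR1 level and rank 35 among all rises, under all 32 alternatives. JUN differed by 0.61 ± 0.15 (adjusted p = 0.0245) with no overlap between the pools. The JUN call ended without BT-TPR1 replicate 1, 2 or 3 (adjusted p = 0.0838, 0.053 and 0.128), without BT-TPR2 replicate 1 or 3 (0.101 and 0.0678), with libraries scaled by size alone (0.123), with replicates 2 and 3 alone (0.0516) or with only these pools in the fit (0.0776, range over alternatives 0.000198 to 0.128). EGR1 was higher in all BT-TPR2 libraries too (1.19 ± 0.35, adjusted p = 0.0657), and passed without trastuzumab replicate 1 or 2 or replicate 2 of both antibodies (0.0479, 0.0347 and 0.0424) and with the replicate block (1.22, adjusted p = 0.00443, range 7.52e-09 to 0.217). FOS overlapped through BT-TPR2 replicate 2 (0.85 ± 0.26, adjusted p = 0.0881). Without that library the FOS difference was 1.11 (adjusted p = 0.0183), and with the block 0.84 (adjusted p = 0.0365, range 0.0183 to 0.287).

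Between the trastuzumab-resistant pools no member passed in edgeR, against 17.7% of tested genes (9.64% higher, 8.09% lower), with 2 members at an unadjusted p under 0.05 and 1 called by DESeq2. These were JUNB, higher in BT-TR2 by 1.05 ± 0.41 (adjusted p = 0.0764), which DESeq2 called, and IER2, by 0.53 ± 0.22 (adjusted p = 0.0938). JUNB passed without BT-TR1 replicate 1 or BT-TR2 replicate 3 (adjusted p = 0.0462 and 0.0489). With the GC correction the JUNB difference was 0.13 and that of IER2 was -0.16. The other 5 members differed by -0.48 to 0.49.

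Set against cells under antibody, the pools showed JUN at a higher level in both classes of resistance. Against trastuzumab-treated cells, the mean of BT-TR1 and BT-TR2 was higher in JUN by 1.03 ± 0.14 (edgeR adjusted p = 1.09e-05) and lower in FOS by -1.57 ± 0.21 (adjusted p = 1.14e-05) and EGR3 by -0.58 ± 0.21 (adjusted p = 0.0421), 3 of 7 members against 34.8% of tested genes (17.6% higher, 17.2% lower). That count lay near the share called. For JUN and FOS no library of the 6 pool libraries overlapped the treated ones, and both calls held under all 32 alternatives. The EGR3 call ended under 14 of 32 alternatives, including without trastuzumab replicate 1 or 3 (adjusted p = 0.153 and 0.111), BT-TR1 replicate 1 (0.105), BT-TR2 replicate 2 or 3 (0.051 and 0.0938), untreated replicate 3 (0.0502), replicate 2 of both antibodies (0.0517), BT-TPR1 replicate 1 (0.0503) or BT-TPR2 replicate 2 (0.0502). It also ended without a filter (0.067), scaled by size alone (0.0652), with the GC correction (0.0562), with replicates 2 and 3 alone (0.115) and with only the groups compared (0.0765).

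Against cells given both antibodies, the mean of BT-TPR1 and BT-TPR2 was higher in 4 of 7 members, against 32.8% of tested genes (15.1% higher, 17.7% lower). EGR1 was higher by 2.68 ± 0.35 (edgeR adjusted p = 9.08e-06), 6.43 times the level under both antibodies, JUN by 0.91 ± 0.14 (3.7e-05), FOSB by 1.61 ± 0.44 (0.00785) and IER2 by 0.61 ± 0.19 (0.02). EGR1, JUN and IER2 did not overlap between the groups, and FOSB did in 1 of 6 libraries. FOS differed by 0.02 ± 0.23 (adjusted p = 0.964), a mean over pools that lay on either side of the treated cells: 1.79 ± 0.36 CPM in BT-TPR1 and 3.27 ± 1.07 CPM in BT-TPR2 against 2.38 ± 0.52 CPM (SD, n = 3 libraries each). The IER2 call ended without replicate 2 or 3 of both antibodies (0.63 and 0.48, adjusted p = 0.0505 and 0.116). JUNB differed by 0.62 ± 0.34 (adjusted p = 0.181) and passed with the replicate block (0.58, adjusted p = 0.00875, range over alternatives 0.00151 to 0.513). No treated library of a resistant pool is in these data, so the antibody's absence and the pool's origin cannot be told apart.

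The relation of FOS to JUN, both counted in the same library, differed between the groups. Per 100 JUN counts, untreated cells held 25.6, 21.3 and 21.7 FOS counts, cells with trastuzumab 30.3, 34.2 and 31.6, and cells with both antibodies 11.8, 12.9 and 12.6. BT-TR1 held 3.96, 5.52 and 5.00, BT-TR2 5.64, 6.13 and 5.58, BT-TPR1 7.13, 5.79 and 5.51, and BT-TPR2 8.10, 5.11 and 8.65. The 3 parental groups did not overlap one another, and all 12 pool libraries lay below all 9 parental ones. The ratio was higher with trastuzumab, where JUN had fallen and FOS had not passed, and was lower in the pools, where FOS had fallen and JUN stood near untreated cells in 3 of 4. EGR1 counts per 100 FOS counts were 331, 337 and 408 in untreated cells and 131, 218 and 140 with both antibodies. Trastuzumab libraries lay at 192, 353 and 234. This ratio was 523 to 622 in BT-TR1, 588 to 798 in BT-TR2 and 765 to 1420 in the pools resistant to both. Each pool library exceeded every untreated one. These ratios were chosen after the levels had been seen and were not tested.

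**Figure D3:**
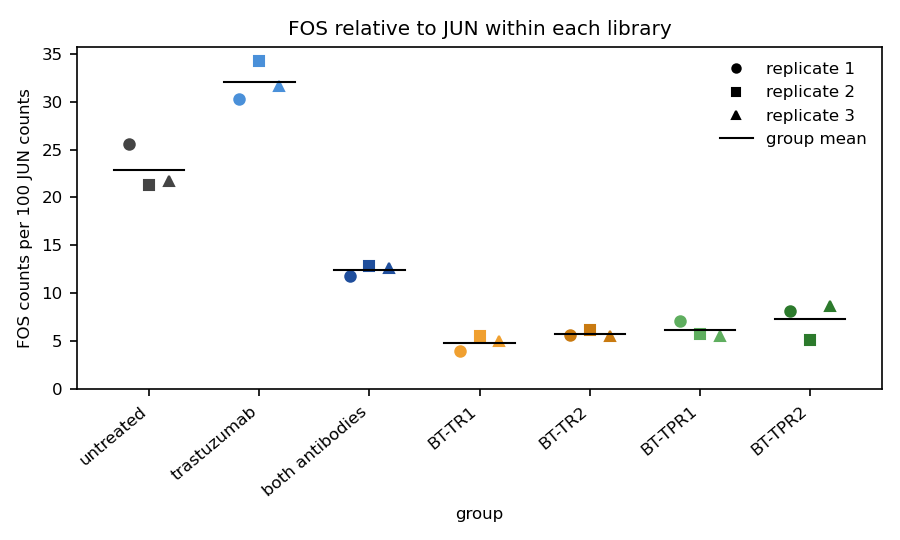
FOS counts per 100 JUN counts in each library (linear axis from 0), by group, with replicates as symbols and group means as bars. Trastuzumab libraries lie at 30.3 to 34.2, untreated ones at 21.3 to 25.6, those with both antibodies at 11.8 to 12.9 and all pool libraries at 3.96 to 8.65.

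With both antibodies, where EGR1 and FOS fell, several other genes known to be under ERK control rose. Of 18 tested ERK feedback and ETS genes, 9 rose, 1 fell and 8 did not pass with both antibodies, with a list median of 0.29 beside -0.01 over all genes, of which 6.39% rose and 6.02% fell. ETV1 (1.44 ± 0.43) and ETV5 (1.34 ± 0.12), ETS transcription factors that ERK signalling induces, were the largest rises, and EPHA2, an ephrin receptor gene, fell (-1.0 ± 0.25). Against trastuzumab alone, where EGR1 and FOS were lower, 8 of the 18 were higher and 0 lower in edgeR, against 0.487% and 0.380% of all genes, led by ETV5 (1.84 ± 0.12, adjusted p = 6.69e-08) and ETV4 (1.55 ± 0.23, adjusted p = 0.00118). With trastuzumab alone 1 rose and 4 fell, against 3.71% and 3.78% of all genes. In the pools resistant to both antibodies, 1 of the 18 was higher and 12 lower against cells given both antibodies. The list median was -0.96, beside 0.03 over all genes, of which 15.1% were higher and 17.7% lower. SPRY2, an inhibitor of receptor signalling, stood at -1.65 ± 0.14. EGR1, JUN, FOSB and IER2 were higher there, while FOS did not pass (0.02 ± 0.23, edgeR adjusted p = 0.964). The 3 comparisons made with both antibodies share the libraries of that group. Against untreated cells, rises outnumbered falls among the 18 for BT-TR1 (8 to 5) and BT-TR2 (8 to 3). Falls outnumbered rises for BT-TPR1 (5 to 1) and BT-TPR2 (9 to 4). FOS was lower in all 4 pools, whichever way the list went.

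**Figure D4:**
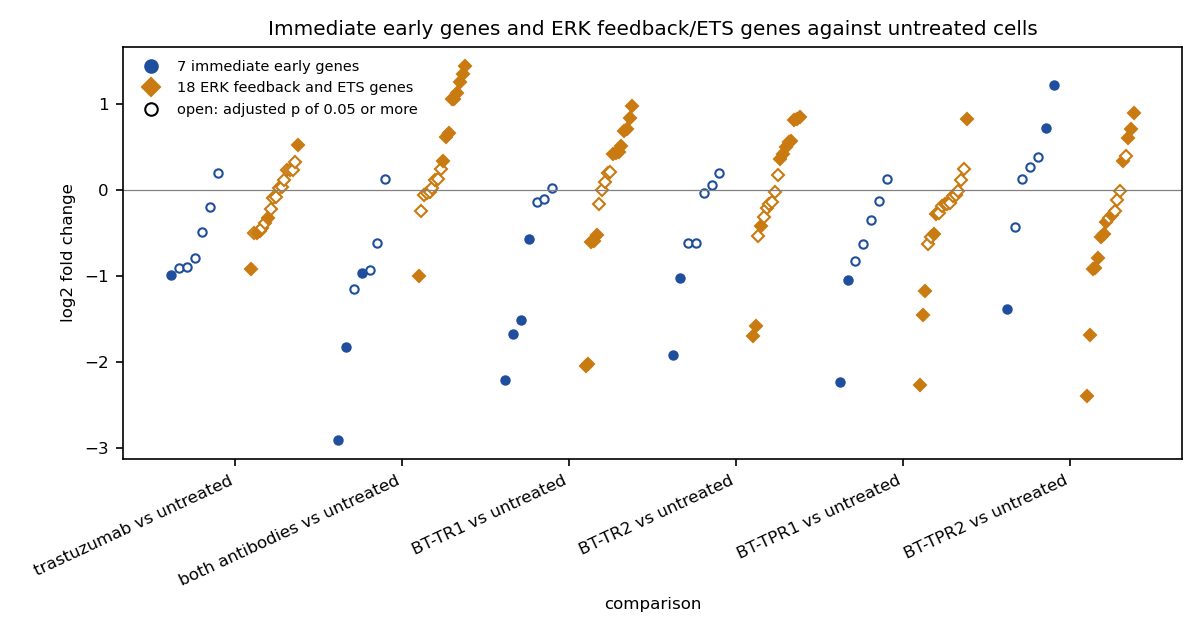
log2 fold change against untreated cells of the 7 immediate early genes (blue circles) and of 18 ERK feedback and ETS genes (orange diamonds), filled where the edgeR adjusted p is under 0.05 and sorted within each group. With both antibodies 3 blue points are filled and all lie at or below -0.96, while 9 of the 10 filled orange points lie above 0.

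Upstream components were examined at the RNA level. Of 19 tested genes from RAS to SRF, 1 rose with trastuzumab (ELK1, 0.40 ± 0.12), and 2 rose with both antibodies (MAP2K1, a MEK gene, 0.42 ± 0.10, and ELK4, 0.40 ± 0.11), with none lower in edgeR in either. Over all tested genes 7.48% were called with trastuzumab and 12.4% with both antibodies, so the list's shares lay near the background. Against untreated cells, 7 of the 19 rose and 5 fell in BT-TR1. The other pools had 5 rises (BT-TR2), 3 (BT-TPR1) and 5 (BT-TPR2), with 0 lower in edgeR. All-gene shares called were 43.6%, 24.9%, 27.3% and 31.6%, and the list's share in BT-TR2 was near its background and that in BT-TPR1 below it. Of the corepressors of EGR proteins, NAB2 fell in BT-TR1 (-0.59 ± 0.21, adjusted p = 0.0277), the pool where EGR1 was lowest among pools, and neither gene passed in the other pools or with the antibodies. Phosphorylation, which sets the activity of this route, was not measured.

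Other early response genes moved in both directions (25 tested). With both antibodies 2 rose and 3 fell (median -0.10), in BT-TR1 6 rose and 10 fell (median -0.32), in BT-TR2 2 rose and 4 fell, in BT-TPR1 3 rose and 5 fell, while BT-TPR2 had 3 rises and 9 falls. Over all tested genes 12.4%, 43.6%, 24.9%, 27.3% and 31.6% were called in these 5 comparisons, so the shares in BT-TR2 and BT-TPR1 lay near the background. BTG2, an antiproliferative gene also induced by p53, rose in all 6 groups against untreated cells, by 0.95 ± 0.11 with trastuzumab alone, where FOS did not pass, 0.93 ± 0.11 with both antibodies, 1.40 in BT-TR1, 0.97 in BT-TR2, 1.49 in BT-TPR1 and 0.80 in BT-TPR2. CYR61, encoding a matricellular protein and induced through SRF and YAP, fell by 0.69 ± 0.18 on the log2 scale when trastuzumab was given and by 1.10 ± 0.18 under both antibodies. Of 13 other AP-1 subunit genes, ATF3, a stress-induced partner of JUN, rose in each pool (1.40, 0.79, 0.80 and 1.09, SE 0.21 in each). FOSL2, a FOS relative, was lower with both antibodies than with trastuzumab (-0.51 ± 0.11) and fell in BT-TR2 against untreated cells (-0.94 ± 0.11), and JUND fell with both antibodies (-0.64 ± 0.19).

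Heat shock genes, which can be induced together with FOS and JUN when cells are handled, were examined beside the members. Of 11 tested, 0 rose and 4 fell with both antibodies in edgeR, while 9 rose in BT-TR1, 5 in BT-TR2, 6 in BT-TPR1 and 7 in BT-TPR2, with 0 lower in any pool. Over all tested genes 6.02% fell with both antibodies and 21.3%, 12.7%, 12.9% and 15.6% rose in those pools. The list medians were -0.47 with both antibodies and 0.66, 0.56, 0.55 and 0.71 in the pools. Their summed level was 5220 to 7800 CPM in untreated cells, 4140 to 5280 with both antibodies and 6760 to 11900 in the pools. The range in BT-TR1 (9140 to 11900) lay above the untreated one, and those of the other 3 pools and of both antibodies overlapped it. The part of stress or handling in the members' levels was not tested.

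Within groups, some members varied together from library to library, without a clean split. Over 21 libraries, deviations of log2 CPM from the group mean correlated at r = 0.93 between EGR1 and JUN, 0.82 between EGR1 and FOS and 0.80 between FOS and JUN. JUNB and IER2 varied together (r = 0.87), and both followed the library's relation to GC content (r = 0.87 for JUNB and 0.91 for IER2, against 0.04 to 0.32 for the other 5 tested members). Deviations of JUN correlated at 0.54 with both JUNB and IER2, and those of FOSB at 0.66 with EGR1 and 0.55 with JUNB. EGR3 lay at -0.01 to 0.42 with the other members. Without removing group means, FOS and JUN correlated at -0.03. These values describe 21 libraries that share groups, replicate numbers and depth. The genes most like FOS over the 21 libraries were the protocadherin genes PCDH19 (r = 0.896) and PCDH7 (0.891), and those most like JUN were PRC1 (0.914) and PITPNM3 (0.913). PTPRQ (0.847) came nearest to EGR1, ZFAS1 (0.83) to EGR3, RP5-1033H22.2 (0.842) to FOSB, PPP1R26 (0.96) to JUNB and HDAC6 (0.924) to IER2.

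**Figure D5:**
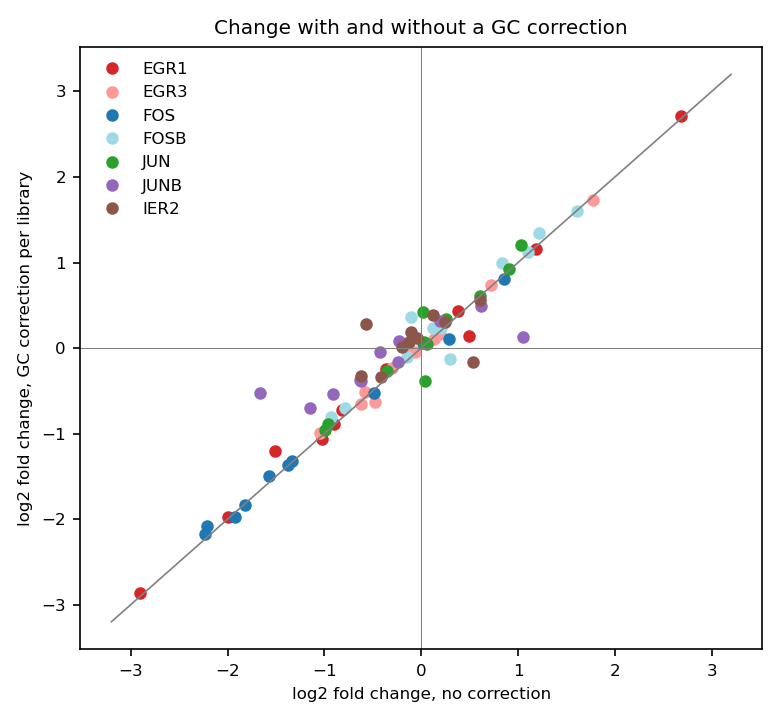
Each point is 1 gene in 1 of 11 comparisons, with its log2 fold change without (x) and with (y) a per-library GC correction; the diagonal marks equal values. EGR1 and FOS keep near the diagonal, while JUNB and IER2 move furthest, with IER2 in BT-TR1 going from -0.57 to 0.28 and JUNB there from -1.67 to -0.52.

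By position on hg38 (GENCODE 29), EGR1 (ENSG00000120738.7) lies at chr5:138465490-138469315, EGR2 (ENSG00000122877.15, but ENSG00000122877.13 in the counts) at chr10:62811996-62919900, FOS (ENSG00000170345.9) at chr14:75278774-75282230, FOSB (ENSG00000125740.13) at chr19:45467995-45475179, JUN (ENSG00000177606.6) at chr1:58780788-58784327, JUNB (ENSG00000171223.5) at chr19:12791496-12793315, and IER2 (ENSG00000160888.6) at chr19:13150415-13154908. EGR3 (ENSG00000179388.8) lies at chr8:22687659-22693302. JUNB overlaps HOOK2, IER2 overlaps AC011446.2 and EGR3 overlaps AC055854.1, each on the opposite strand, so the limit given for FOSB holds for them as well. EGR1, EGR2, FOS and JUN overlap no other annotated gene.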

How the data were processed

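The authors deposited raw read counts per gene, and values on a log2-like scale that were used for an alternative only; per the submitters' processing notes the tools were Bowtie2, featureCounts and DESeq2 and the build hg38. Versions, settings, annotation release and strandedness are not given in the sources used here. Counts for all 21 libraries entered 1 fit in R 4.3.3 with edgeR 4.0.16: filterByExpr by group (minimum count 10, minimum total 15), TMM scaling, a term per group, 14 residual degrees of freedom, glmQLFit and glmQLFTest, and Benjamini-Hochberg adjustment over 17650 genes. The 8 members, the lists, tests and alternatives were chosen with earlier results of these data known. All members are named, with up to 2 rises and 2 falls per list and up to 3 genes most like each member, of which the first 1 or 2 are printed. Alternatives were no filter, a stricter filter (CPM of 1 in 3 libraries), RLE scaling, library size alone, DESeq2 1.42.0, limma 3.58.1 on the deposited log2-like values, only the groups compared, a GC correction per library (spline with 5 degrees of freedom, 17554 genes), the replicate number as a block, both together, replicates 2 and 3 alone, and each library left out in turn. Deviations of same-numbered libraries from their group means correlated above 0.1 in every pair in 8 of 11 comparisons (r from -0.0106 to 0.645 over all pairs). The numbers come from the labels, and the exceptions were both antibodies against untreated cells, BT-TR2 against BT-TR1 and the trastuzumab-resistant mean against trastuzumab. Replicate libraries gave a chi-square per degree of freedom of 5.4 to 79.7 over gene counts, where counting error alone gives a value near 1, so replicate spread sets the precision. GENCODE 29 gave positions for 36530 of 37355 gene IDs. The fit was tested on simulated data.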

Additional observations from a re-analysis of the deposited data

Results flagged for a closer look

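EGR3 and JUN differed between the 2 pools resistant to both antibodies, tested directly in edgeR. The changes of BT-TPR2 and BT-TPR1 against the same untreated libraries differed by 1.77 in EGR3 (0.72 against -1.05, opposite directions that were both called) and by 0.61 in JUN (0.26 against -0.35, neither called). The EGR3 levels were 3.63 to 4.39 CPM in BT-TPR2 and 0.897 to 1.51 CPM in BT-TPR1.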

How the results depend on the processing

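Of 26 calls, 17 held under every alternative run for them, and 53 of the 77 gene and comparison pairs never changed sign. RLE scaling and limma on the deposited values left all 77 on the same side of the threshold with the same sign. Changes of over 1.5 times in the number called among the 7 tested members follow, and the cause was not tested. Shares called over all genes moved too: with the block from 7.48% to 26.2% for trastuzumab against untreated cells, 12.4% to 32.6% for both antibodies, 24.9% to 45.8%, 27.3% to 47.4% and 31.6% to 51.1% for BT-TR2, BT-TPR1 and BT-TPR2, 17.7% to 42.8% for BT-TR2 against BT-TR1 and 3.45% to 12% for BT-TPR2 against BT-TPR1. In the first comparison they were 16.1% with GC correction, 28.1% with both, 4.52% with no filter and 2.27% with only the groups compared. For trastuzumab against untreated cells it went from 1 to 3 with no filter, 3 with the replicate block, 2 with the GC correction, 4 with GC correction and block and 2 with only the groups compared (1 to 2 leaving out a library). For both antibodies against untreated cells it went from 3 to 5 with no filter, block, GC correction, both, replicates 2 and 3 alone or DESeq2 (3 to 5). With the block JUNB was -1.18 and IER2 -0.62. Deviations of same-numbered libraries correlated at r = 0.564, -0.011 and 0.412 in replicates 1, 2 and 3. The replicate 2 libraries thus did not vary together, which does not tell whether same-numbered libraries were handled as pairs. For both antibodies against trastuzumab it went from 2 to 0 with only the groups compared (0 to 2). For BT-TR2 against untreated cells it went from 2 to 1 with library size alone and to 4 with the block, alone or with GC correction (1 to 3), and from 2 in BT-TPR1 to 4 with no filter (EGR2, which only that fit includes, was called as well) and 5 with the block, alone or with GC correction. In BT-TPR2 it went from 3 to 5 with GC correction and block (1 to 3). For BT-TR2 against BT-TR1 the replicate 2 deviations were again hardly correlated (r = 0.530, 0.073 and 0.350 in replicates 1, 2 and 3). The number called there went from 0 to 2 with no filter or the block (JUNB 1.02, IER2 0.53). It went to 1 with library size alone, GC correction and block, replicates 2 and 3 alone or DESeq2 (0 to 1). For BT-TPR2 against BT-TPR1 it went from 2 to 1 with library size alone or replicates 2 and 3 alone, 4 with the block and 6 with GC correction and block (1 to 3). Smaller moves were 5 with GC correction, alone or with the block, in BT-TR1 (from 4), 4 with only the groups compared for both antibodies against untreated cells (from 3), 2 with no filter, library size alone, GC correction or only the groups compared for the trastuzumab-resistant mean (from 3), and 5 with no filter, block or GC correction, alone or with the block, for the mean resistant to both (from 4), among others. It was 3 to 4 for BT-TR1, 2 to 3 for the trastuzumab-resistant mean and 3 to 4 for the mean resistant to both when a library was left out.

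Signs reversed in the following cases, of which the IER2 fall in BT-TR1 was the only call. With the GC correction alone and with the block, IER2 became 0.01 and 0.01 with trastuzumab, 0.28 and 0.28 for BT-TR1 against untreated cells, 0.12 and 0.12 for BT-TR2, 0.07 and 0.07 for BT-TPR1, -0.16 and -0.16 for BT-TR2 against BT-TR1 and 0.19 and 0.19 for the trastuzumab-resistant mean. So did FOSB in BT-TR1 (0.36 and 0.33) and for BT-TR2 against BT-TR1 (-0.13 and -0.12), JUN for the latter (-0.38 and -0.36) and JUNB for the trastuzumab-resistant mean (0.08 and 0.07). With library size alone IER2 was 0.04 for BT-TR2 and 0.02 for BT-TPR1, and this scaling moved the median of all genes by 0.14 for BT-TPR1 and 0.121 for the mean resistant to both. JUN in BT-TR1 was -0.00 with only the groups compared, and FOS for the mean resistant to both -0.01 with the stricter filter. With replicates 2 and 3 alone, EGR3 was 0.06 for both antibodies against trastuzumab and 0.28 in BT-TR1, FOSB 0.45 there, JUN -0.11 for BT-TR2, FOS -0.26 for the mean resistant to both, and FOS -0.00, FOSB -0.13 and JUN -0.12 for BT-TR2 against BT-TR1. Leaving out a library gave, for both antibodies against trastuzumab, EGR3 -0.17 to 0.01, FOSB -0.71 to 0.21, JUN -0.13 to 0.15 and JUNB -0.38 to 0.01. In BT-TR1 it gave EGR3 -0.27 to 0.15, FOSB -0.86 to 0.26 and JUN -0.06 to 0.10. For BT-TR2 it gave FOSB -0.02 to 0.55, JUN -0.08 to 0.14 and IER2 -0.26 to 0.09. In BT-TPR1 it gave FOSB -0.04 to 0.49 and IER2 -0.24 to 0.02, and in BT-TPR2 IER2 -0.10 to 0.26. It gave FOSB -0.02 to 1.07 and JUN -0.10 to 0.13 for BT-TR2 against BT-TR1, JUNB -0.22 to 0.56 for BT-TPR2 against BT-TPR1, EGR1 -0.61 to 0.15 for the trastuzumab-resistant mean and FOS -0.09 to 0.21 for the mean resistant to both. Depth limits EGR2 and FOSB.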
